A study of Mus musculus with 2 samples.

Results

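The C-type lectin genes of the mouse, taken as every gene in the deposited data whose symbol begins with Clec and a number, were examined in monocytic myeloid-derived suppressor cells (M-MDSCs). The data list 33 such genes among 34745 genes. Of the 33, 18 reached 1 FPKM (reads scaled by gene length and by the total of the library) in at least one library, 9 were detected below that level, and 6 had no read. Over the whole data, 31.5% of the listed genes reached 1 FPKM. Bone marrow cells of C57BL/6 mice aged 6 to 8 weeks were cultured for 7 days with the myeloid growth factor GM-CSF alone (CHBP- M-MDSC) or with CHBP, the cyclic helix B peptide derived from erythropoietin (CHBP+ M-MDSC), and M-MDSCs were then sorted as CD11b+Ly6G-Ly6Chigh cells. The labels write the strain of CHBP+ M-MDSC as C57BL/7, and the concentration of CHBP is given in different units in the methods and the results of the study. Each condition was sequenced as 1 library, so no difference could be set against a spread between replicates, and an effect of CHBP cannot be told apart from whatever else set the 2 cultures apart.

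C-type lectin receptors are surface proteins of myeloid cells that bind sugars, lipids or proteins of microbes and dead cells through a C-type lectin domain. The activating receptors signal through the adaptors FcRgamma (Fcer1g) or DAP12 (Tyrobp), or through a tyrosine motif of their own, to the kinase SYK and on to CARD9, BCL10, MALT1 and NF-kappaB. The inhibitory receptors carry a tyrosine motif that recruits the phosphatases SHP-1 (Ptpn6) and SHP-2 (Ptpn11), and other members are endocytic receptors or ligands of receptors on natural killer cells.

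The counts summed to 16484504 reads in CHBP- and 16280466 reads in CHBP+ M-MDSC, and the level of 3 reads, which a gene without reads could still have, was 0.182 and 0.184 CPM (reads scaled by the library total alone). Among the genes of the sort, Itgam, which encodes CD11b, was at 157 and 232 FPKM, Ly6c2 at 56.9 and 34.0 FPKM, and Ly6g at 2.19 and 2.12 FPKM in CHBP- and CHBP+ M-MDSC. Ly6c2 was thus lower in CHBP+ M-MDSC by more than 1.5-fold. Its log2 ratio of CHBP+ over CHBP-, with 1 FPKM added to each level, was -0.73. It became -0.35, within 1.5-fold, when the median of genes with a longest transcript of like length was subtracted. All 14 genes of a neutrophil list were at 1 FPKM or more, with a summed level of 3627 and 3253 FPKM. Most of this sum came from Mmp8 (1290 and 1546 FPKM), S100a9 (1269 and 937 FPKM) and S100a8 (576 and 391 FPKM). Ctsg followed at 210 and 158 FPKM. Next came Elane (75.2 and 46.3 FPKM), Ngp (66.8 and 57.6 FPKM) and Csf3r (53.6 and 50.1 FPKM). Prtn3 (33.0 and 18.9 FPKM), Cxcr2 (21.6 and 22.6 FPKM), Mpo (19.3 and 14.8 FPKM) and Retnlg (6.98 and 5.96 FPKM) were lower. Only Camp (1.76 and 1.38 FPKM) and Ltf (1.54 and 1.63 FPKM) were as low as Ly6g. Elane and Prtn3 were lower in CHBP+ M-MDSC by more than 1.5-fold, but not against genes of like longest transcript (log2 ratios -0.34 and -0.43). Of 13 monocyte and macrophage markers, 12 reached 1 FPKM (summed 729 and 790 FPKM). In such bulk libraries, fewer cells of a type and less RNA per cell cannot be told apart.

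The family was carried by a few receptors. All 33 members together took 74971 reads in CHBP- M-MDSC, 0.455% of the counted reads (95% Clopper-Pearson interval 0.452% to 0.458%), and 68693 reads in CHBP+ M-MDSC, 0.422% (0.419% to 0.425%). These and the following intervals cover counting error only. Clec4n alone held 47.2% of the members' reads in CHBP- and 44.5% in CHBP+ M-MDSC. The CPM ratio of CHBP+ over CHBP- for the summed reads was 0.928 (0.918 to 0.937), and without Clec4n it was 0.976 (0.962 to 0.989).

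**Figure D1:**
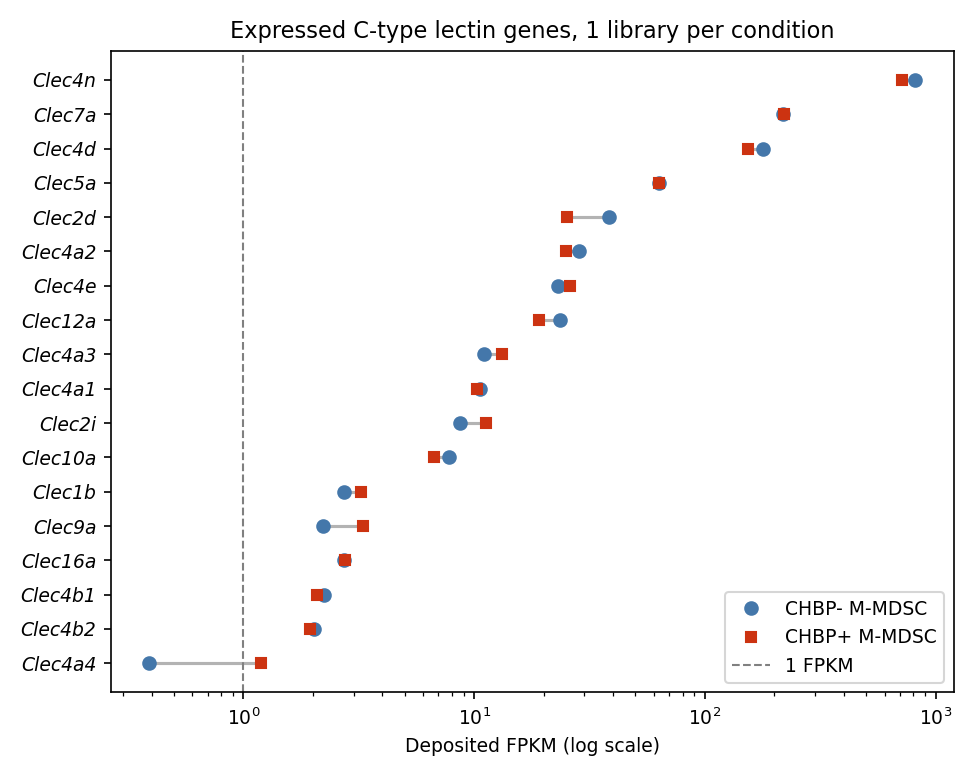
Deposited FPKM (log axis) of the 18 C-type lectin genes with at least 1 FPKM in either library, with circles for CHBP- and squares for CHBP+ M-MDSC (1 library each) and a dashed line at 1 FPKM. Clec4n lies highest in both libraries, at 815 and 713 FPKM, and Clec4a4 is the only one with a library under 1 FPKM.

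The 4 members with the highest levels per longest transcript among those with a promoter entry in RefSeq (Clec4n has none), and Clec2d, the member that was more than 1.5-fold lower in CHBP+ M-MDSC, are shown with the 250 bases before their first listed start site (GRCm38.p6). Capitals mark the letters GAGGAA, the core bound by PU.1, a factor that directs myeloid development, and TTNNGCAA, a core bound by the myeloid C/EBP factors, each searched on both strands, so that TTCCTC is GAGGAA read on the other strand.
Clec7a (chr6:129472780-129473029, minus strand): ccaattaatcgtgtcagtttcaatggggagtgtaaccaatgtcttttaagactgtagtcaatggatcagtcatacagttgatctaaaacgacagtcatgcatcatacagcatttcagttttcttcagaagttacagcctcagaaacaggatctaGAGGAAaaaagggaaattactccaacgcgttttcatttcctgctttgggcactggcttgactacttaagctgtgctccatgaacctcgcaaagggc
Clec4d (chr6:123261857-123262106, plus strand): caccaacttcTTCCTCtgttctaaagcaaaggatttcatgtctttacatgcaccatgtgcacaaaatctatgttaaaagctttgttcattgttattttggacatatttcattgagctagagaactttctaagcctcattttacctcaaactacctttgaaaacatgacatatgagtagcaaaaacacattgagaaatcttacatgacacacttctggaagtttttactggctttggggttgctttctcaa
Clec4e (chr6:123289872-123290121, minus strand): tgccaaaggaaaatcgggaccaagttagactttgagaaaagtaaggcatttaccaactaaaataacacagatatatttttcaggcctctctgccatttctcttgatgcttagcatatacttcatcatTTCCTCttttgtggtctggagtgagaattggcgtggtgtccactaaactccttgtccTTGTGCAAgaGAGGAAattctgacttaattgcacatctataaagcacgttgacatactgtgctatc
Clec5a (chr6:40585806-40586055, minus strand): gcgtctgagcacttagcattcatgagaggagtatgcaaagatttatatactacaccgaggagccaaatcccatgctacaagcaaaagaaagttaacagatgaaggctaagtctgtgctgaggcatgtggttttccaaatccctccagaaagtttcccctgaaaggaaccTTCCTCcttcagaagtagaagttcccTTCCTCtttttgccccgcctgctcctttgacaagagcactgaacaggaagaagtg
Clec2d (chr6:129180365-129180614, plus strand): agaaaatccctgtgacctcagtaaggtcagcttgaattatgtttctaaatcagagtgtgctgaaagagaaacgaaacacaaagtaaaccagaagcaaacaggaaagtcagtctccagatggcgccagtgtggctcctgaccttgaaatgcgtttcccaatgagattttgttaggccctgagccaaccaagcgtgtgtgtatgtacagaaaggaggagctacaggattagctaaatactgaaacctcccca
GAGGAA begins 96 bases before the start of Clec7a and, on the other strand, 240 bases before that of Clec4d. Clec4e has it at 123 and 56 bases, with TTNNGCAA at 66 bases, and Clec5a has it at 81 and 55 bases. Clec2d holds neither. Among the 15 members at 1 FPKM or more with an entry, 9 held GAGGAA in this window before the first listed start and 3 held TTNNGCAA. Of the 10 members with an entry that stayed under 1 FPKM, 4 and 1 did. Over the first listed starts of 27025 genes, the shares were 23.1% and 9.55%. When any listed start of a gene was allowed, Clec4a3 was added to those with GAGGAA, and the shares over all genes were 25.9% and 10.8%. TATAAA, the TATA box letters, was before the first listed start of 5 of the 15, 2 of the 10 and 13.0% of all genes. A match of letters is not evidence of binding, and no binding was measured.

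By the locus column, 22 of the 33 members lay in 2 clusters of chromosome 6, when genes at most 1 Mb apart were joined, and the other 11 lay alone. The first cluster, from 122921848 to 123289870 (368 kb), held 9 genes in the order Clec4a1, Clec4a3, Clec4a4, Clec4b1, Clec4a2, Clec4b2, Clec4n, Clec4d and Clec4e. All 9 reached 1 FPKM. They took 50200 reads in CHBP- and 44677 in CHBP+ M-MDSC, or 67.0% and 65.0% of the members' reads, a CPM ratio of 0.901 (0.890 to 0.913). The second cluster, from 128652416 to 129472779 (820 kb), held 13 genes from Clec2j to Clec7a. Of these, 6 reached 1 FPKM (Clec2i, Clec2d, Clec12a, Clec1b, Clec9a and Clec7a), 5 had fewer reads and 2 had none. This cluster took 17149 and 16581 reads, a CPM ratio of 0.979 (0.958 to 1.00). Coordinates are those of the deposited tables, on GRCm38. Of the 11 single genes, Clec5a (chromosome 6, 40574894 to 40585821), Clec10a (chromosome 11, 70156197 to 70170834) and Clec16a (chromosome 16, 10545339 to 10744878) reached 1 FPKM. At 1 FPKM in either library the clusters therefore differed in how many members were expressed, 9 of 9 against 6 of 13. Within each the levels spanned a wide range. With a minimum of 5 FPKM, Clec4a4, Clec4b1 and Clec4b2 dropped out of the first cluster and Clec1b and Clec9a out of the second. Clec4a4 was also under 1 FPKM in CHBP- M-MDSC.

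**Figure D2:**
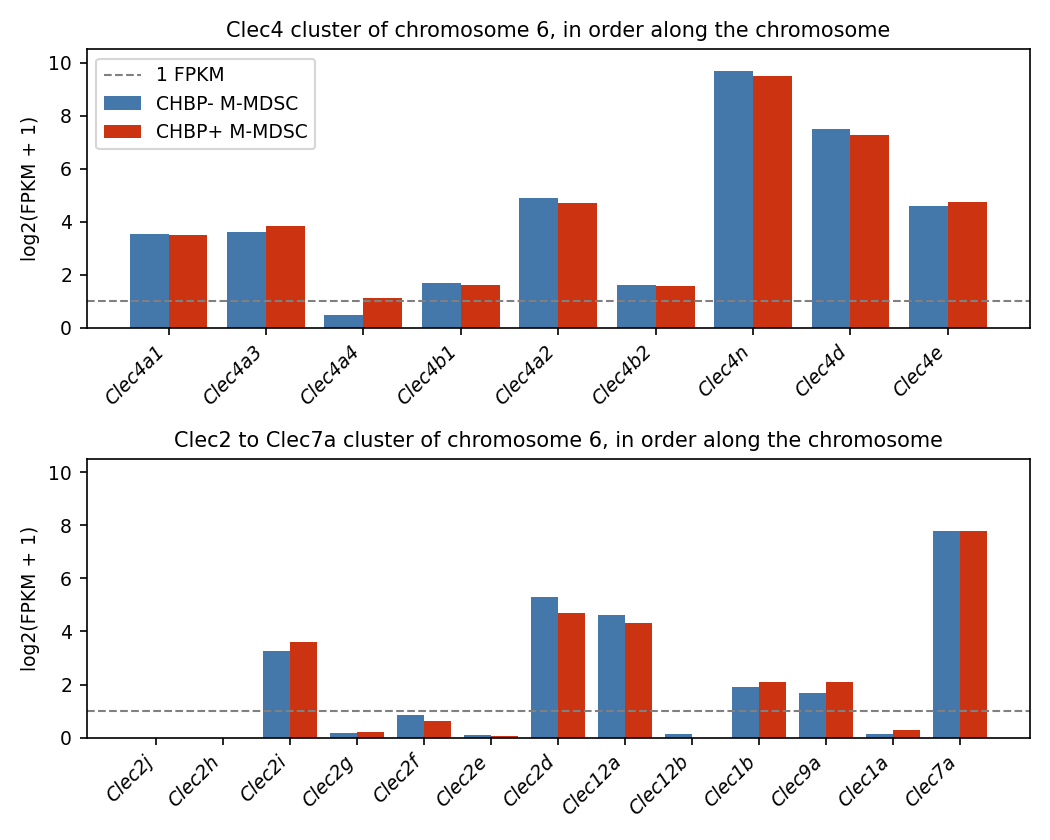
Levels as log2(FPKM + 1) of the members of both chromosome 6 clusters in the order of their loci, with bars for CHBP- and CHBP+ M-MDSC (1 library each) and a dashed line at 1 FPKM. In the upper panel the levels are highest at Clec4n and Clec4d near one end of the cluster, with Clec4e and Clec4a2 next, and in the lower panel at Clec2d, Clec12a and Clec7a, with Clec2j and Clec2h at 0.

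Among the activating receptors, all 9 reached 1 FPKM and none was 1.5-fold apart. Over all genes at 1 FPKM or more in either library, only 3.42% were higher and 2.89% lower by that threshold. Clec4n, which encodes Dectin-2, the FcRgamma-coupled receptor of fungal mannans, had 35378 reads in CHBP- and 30542 in CHBP+ M-MDSC, at 815 and 713 FPKM, and ranked 50 of 10948 genes kept by its level. Its CPM ratio was 0.874 (0.861 to 0.888). Clec4n was thus lower in CHBP+ M-MDSC by more than counting error but by far less than 1.5-fold. Clec4d, which encodes MCL, a receptor of mycobacterial glycolipid, had 7036 and 5994 reads (178 and 154 FPKM), a CPM ratio of 0.863 (0.833 to 0.893). Clec4e, the next gene along the chromosome, encodes Mincle, which pairs with MCL and FcRgamma. It had 5005 reads in CHBP- and 5564 in CHBP+ M-MDSC (23.0 and 25.9 FPKM), a CPM ratio of 1.13 (1.08 to 1.17). The neighbours Clec4d and Clec4e, whose products act as a pair, therefore had CPM ratios on opposite sides of 1. This contrast in direction was lost when the trend of the ratios with length was removed: the log2 ratios of Clec4d and Clec4e were -0.08 and -0.03 against genes of like length in the FPKM, and 0.05 and 0.27 against genes of like longest transcript. Clec4e had 0.711 reads for each read of Clec4d in CHBP- M-MDSC (0.686 to 0.738) and 0.928 in CHBP+ M-MDSC (0.895 to 0.963). Clec4n and Clec4d kept nearly the same proportion, with 5.03 (4.90 to 5.16) and 5.10 (4.96 to 5.24) reads of Clec4n for each read of Clec4d.

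Clec7a and Clec5a were nearly equal in the libraries. Clec7a, which encodes Dectin-1, the receptor of fungal beta-glucans with a signalling motif of its own, had 12612 and 12479 reads, at 219 FPKM in each, a CPM ratio of 1.00 (0.977 to 1.03). Clec5a, which encodes MDL-1, a DAP12-coupled receptor of myeloid cells, had 6352 and 6286 reads (63.1 and 63.2 FPKM), a CPM ratio of 1.00 (0.968 to 1.04). At this depth and scaled by the library totals, counting error therefore left room for a difference of only a few percent in either gene. With the trend of the ratios with length removed, both moved. The log2 ratio of Clec7a went from 0.00 to 0.09 by the length in the FPKM and 0.11 by the longest transcript. That of Clec5a went from 0.00 to -0.01 and -0.05.

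The DCAR genes Clec4b1 and Clec4b2, whose products couple to FcRgamma, were low. Clec4b1 had 39 and 36 reads (2.23 and 2.08 FPKM), a CPM ratio of 0.935 (0.577 to 1.51), and Clec4b2 had 39 and 37 reads (2.02 and 1.94 FPKM), a ratio of 0.961 (0.596 to 1.55). A difference in either was not detectable at this depth. How reads that map to several genes were counted is not stated, so counts of the closely related Clec4a and Clec4b genes are uncertain.

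Clec9a and Clec1b, adjacent genes of the second cluster, were low. Both had CPM ratios above 1, that of Clec1b only barely beyond counting error. Clec9a encodes DNGR-1, which binds actin filaments exposed by dead cells and is known from type 1 conventional dendritic cells. It had 148 reads in CHBP- and 218 in CHBP+ M-MDSC (2.22 and 3.31 FPKM), a CPM ratio of 1.49 (1.20 to 1.85). Its log2 ratio, for which 1 FPKM was added to the level in each library before the CHBP+ level was divided by the CHBP- level, was 0.42, below the 1.5-fold threshold on that scale, which understates the change of low genes. Of 13 markers of type 1 conventional and plasmacytoid dendritic cells, 6 reached 1 FPKM and Xcr1 had no read in either library. The summed level of that list was 152 FPKM in CHBP- and 117 FPKM in CHBP+ M-MDSC, most of it from Bst2 (87.4 and 64.3 FPKM), Ly6d (25.0 and 15.3 FPKM) and Cox6a2 (23.2 and 17.5 FPKM). Wdfy4, in contrast, had 2051 and 2757 reads, a CPM ratio of 1.36 (1.28 to 1.44). Batf3 had 53 and 39 reads, and Zbtb46, under 1 FPKM, had 49 and 93, a ratio of 1.92 (1.35 to 2.77). Markers of that list thus lay on both sides of 1. Against genes of like longest transcript, the log2 ratios of Wdfy4, Bst2 and Cox6a2 were -0.02, -0.06 and -0.01. Those of Ly6d, Flt3 and Batf3 were -0.30, -0.14 and 0.18. The part of such cells in the level of Clec9a was not tested. Clec1b encodes CLEC-2, the podoplanin receptor known from platelets and some myeloid cells. It had 266 and 311 reads (2.74 and 3.24 FPKM), a CPM ratio of 1.18 (1.002 to 1.40). Its log2 ratio of 0.18 became 0.07 against genes of like longest transcript. Of 11 megakaryocyte and platelet markers, 9 reached 1 FPKM, and the summed level of the list was 398 and 338 FPKM. Most of it came from Pf4 (258 and 196 FPKM) and Ppbp (115 and 110 FPKM). Itgb3, an integrin that other cells also make, was higher by 1.5-fold (3.67 and 12.9 FPKM). Treml1 was lower by 1.5-fold (4.67 and 2.41 FPKM), and the other 7 lay between. Against genes of like longest transcript, the log2 ratio of Pf4 went from -0.39 to -0.02 and that of Ppbp from -0.06 to 0.29. That of Treml1 went from -0.73 to -0.46, within 1.5-fold, and that of Itgb3 from 1.58 to 1.35. The part of platelets or megakaryocytes in the level of Clec1b was not tested. The listed loci of Clec9a and Clec1b share 474 bases, so their reads may not be fully separated. Summed, the pair had 414 and 529 reads, a CPM ratio of 1.29 (1.14 to 1.47).

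The DCIR genes and the MICL gene had ratios on both sides of 1. Clec12a encodes MICL, an inhibitory receptor of uric acid crystals. It had 2529 reads in CHBP- and 2017 in CHBP+ M-MDSC (23.6 and 19.0 FPKM), a CPM ratio of 0.808 (0.761 to 0.857). Clec4a2, which encodes the inhibitory receptor DCIR1, had 2011 and 1740 reads (28.5 and 25.0 FPKM), a ratio of 0.876 (0.821 to 0.935). Both of these inhibitory receptors were therefore lower in CHBP+ M-MDSC by more than counting error. Against genes of like longest transcript, the log2 ratio of Clec4a2 went from -0.18 to -0.08, while that of Clec12a stayed at -0.29. Clec4a3 (DCIR3) had 415 and 489 reads (11.1 and 13.2 FPKM), a ratio of 1.19 (1.04 to 1.36). Clec4a1 (DCIR4) had 272 and 260 reads (10.6 and 10.3 FPKM), a ratio of 0.968 (0.813 to 1.15). Of this pair, the ratio of Clec4a3 was above 1 by more than counting error and that of Clec4a1 was not. Clec4a4, which encodes DCIR2, an inhibitory receptor known from a subset of dendritic cells, had 5 reads in CHBP- and 15 in CHBP+ M-MDSC, with levels of 0.391 and 1.19 FPKM. The log2 ratio of Clec4a4, 0.65, was past the 1.5-fold threshold, yet its CPM ratio of 3.04 had an interval from 1.05 to 10.7, and it is the member that entered the set only through CHBP+ M-MDSC. Clec12b, another inhibitory receptor, had 4 reads in CHBP- and 0 in CHBP+ M-MDSC.

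Of the Clec2 genes, whose products include ligands of the NKR-P1 receptors of natural killer cells, Clec2d and Clec2i were expressed and lay on opposite sides of 1. Clec2d encodes Clr-b, the ligand of an inhibitory NKR-P1 receptor. It had 769 reads in CHBP- and 497 in CHBP+ M-MDSC (38.5 and 25.2 FPKM), a CPM ratio of 0.654 (0.583 to 0.733). Its log2 ratio was -0.59, just past the 1.5-fold threshold, and became -0.33, within it, when compared with genes of like transcript length. Clec2i, which encodes Clr-g, had 780 and 1007 reads (8.64 and 11.3 FPKM), a CPM ratio of 1.31 (1.19 to 1.44). These genes thus had nearly equal reads in CHBP- M-MDSC, while in CHBP+ M-MDSC Clec2i had more reads than Clec2d. The locus of Clec2i overlaps that of BC035044, which had 354 and 256 reads, and the summed CPM ratio of both was 1.13. Clec2f reached at most 0.824 FPKM, and Clec2e, Clec2g and Clec2l had at most 14 reads in a library, while Clec2h and Clec2j had none.

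The remaining members at 1 FPKM or more were Clec10a and Clec16a. Clec10a encodes MGL1, an endocytic receptor of galactose-type sugars on macrophages and dendritic cells. It had 743 and 635 reads (7.75 and 6.71 FPKM), a CPM ratio of 0.865 (0.777 to 0.963). Clec16a encodes an endosomal regulator of mitophagy and, despite its name, no surface lectin receptor. It had 498 and 496 reads (2.74 and 2.76 FPKM), a ratio of 1.01 (0.889 to 1.14). Both thus lay well inside the 1.5-fold threshold.

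The 15 members under 1 FPKM in both libraries included the secreted proteins Clec3a, Clec3b, Clec11a and Clec18a, the endothelial gene Clec14a, and Clec4f and Clec4g, known from liver macrophages and liver sinusoidal endothelium. Clec4f, Clec4g, Clec18a, Clec3a, Clec2h and Clec2j had no read in either library, which allows up to the level of 3 reads. Of the 9 with reads, 5 had at least 10 over both libraries. Clec1a had 12 reads in CHBP- and 28 in CHBP+ M-MDSC, a CPM ratio of 2.36 (1.16 to 5.10), and Clec11a, a growth factor of stromal origin, had 20 and 11, a ratio of 0.557 (0.241 to 1.22). Clec2g had 13 and 14 reads, Clec2f 14 and 9, and Clec2l 7 and 5, and for these the intervals spanned 1. The other 4 were Clec12b and Clec2e, with at most 4 reads in a library, and Clec14a and Clec3b, with at most 2. Clec2g overlaps Gm15987, which had 30 and 41 reads. Among 10 endothelial and stromal markers 3 reached 1 FPKM, and among 13 lymphocyte markers 5 did.

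At the 1.5-fold threshold of the study's methods, 1 of the 18 expressed members was higher in CHBP+ M-MDSC (Clec4a4) and 1 was lower (Clec2d). Over all 10948 genes kept, 3.42% were higher and 2.89% were lower by that rule, so 1 member of 18 in each direction lay close to that background. Clec4a4 passed the minimum of 1 FPKM only through CHBP+ M-MDSC, the library where it is higher, so the rule favoured its call. No other member was higher, and Clec4a4 is also in the counts that follow. The counting interval of the CPM ratio lay above 1 for 6 members (Clec4a3, Clec4a4, Clec4e, Clec2i, Clec1b and Clec9a) and below 1 for 6 (Clec4a2, Clec4n, Clec4d, Clec2d, Clec12a and Clec10a), against 27.9% and 31% of all genes kept. The log2 ratio was above 0 for 9 members and below 0 for 9, against 46.3% and 53.7% of all genes kept. The median log2 ratio of the members was -0.02, and that of all genes kept was -0.03. By these counts and medians the values of the family lay near those of all genes.

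**Figure D3:**
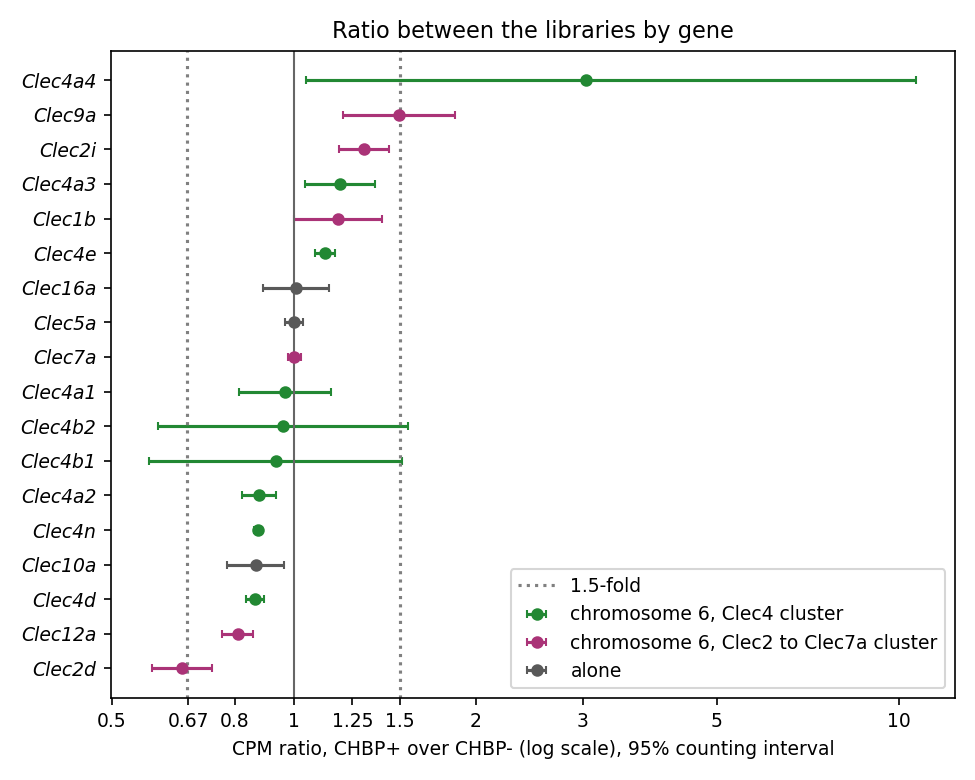
CPM ratio of CHBP+ over CHBP- M-MDSC (log axis) for the 18 expressed members, with 95% Clopper-Pearson intervals for counting error, coloured by cluster, and dotted lines at 1.5-fold in either direction. Clec2d is lowest at 0.654 and Clec4a4 highest at 3.04 with the widest interval, and Clec5a and Clec7a lie at 1.00.

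The ratios moved with transcript length in these libraries. Over the 10508 genes kept that GENCODE M1 gives a transcript length, the log2 ratio and the longest transcript had a Spearman's rho of 0.66, a description across genes, which are not independent replicates. Over the 18 members it was 0.25. When the median log2 ratio of genes of like transcript length (20 groups) was subtracted, an alternative chosen after seeing the data, 13 members were above 0 and 5 below, against 9 and 9 before. This subtraction sets the median of each group to 0, so all genes split about evenly around 0 by construction. Of the 18 members, 6 then lay within 0.1 of 0. The log2 ratio of Clec4n went from -0.19 to 0.05 and that of Clec4d from -0.21 to 0.05, while Clec4e went from 0.16 to 0.27. With the length in the FPKM used in place of the longest transcript, 9 members were above 0 and 9 below. Clec4n was then at -0.06 and Clec4d at -0.08, still below 0, and Clec4e turned to -0.03. Clec4n and Clec4d thus lay close to the median of genes with transcripts as short as theirs. Against genes of like longest transcript, Clec2d stayed below 0, at -0.33, and Clec12a at -0.29. Clec9a stayed at 0.42, Clec2i went from 0.35 to 0.39, and Clec4a3 went from 0.24 to 0.50. Clec16a, with a long transcript, went from 0.01 to -0.29. The signs of Clec4a1, Clec4b1, Clec4b2, Clec4n, Clec4d, Clec10a, Clec5a and Clec16a changed.

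**Figure D4:**
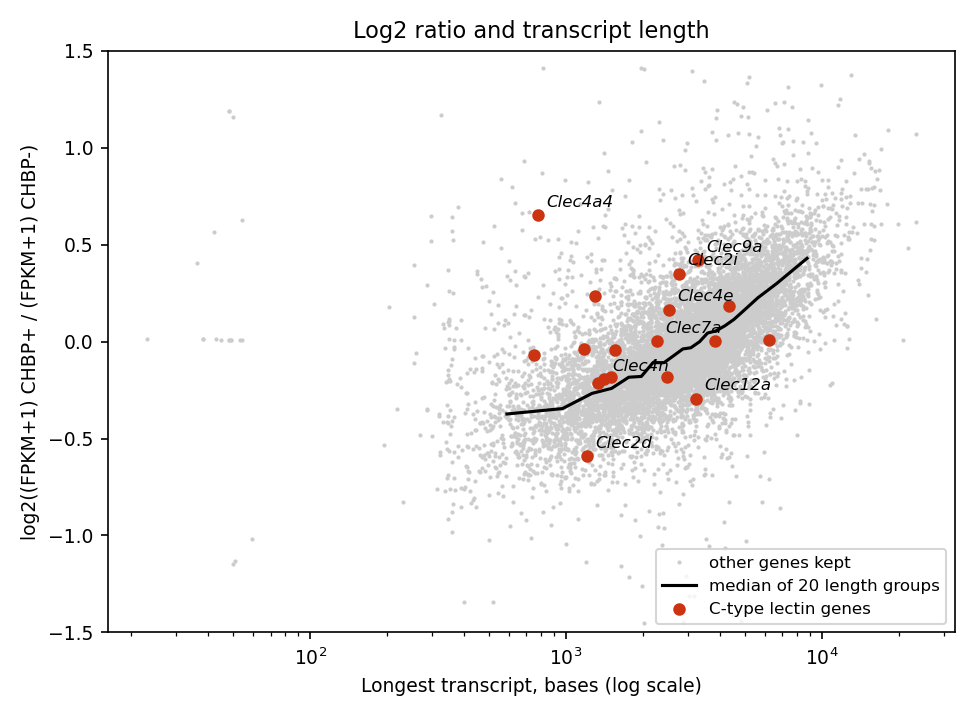
Log2 ratio against the longest transcript (log axis) for the members and for all other genes kept, with the median of 20 groups by length as a line; 32 genes lie outside the vertical axis. Clec2d and Clec12a lie below the line and Clec9a, Clec2i and Clec4a4 above it, while Clec4n lies close to it.

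The order of the members by level depended on the gene length in the FPKM. The length implied by the reads and FPKM was 13196 bases for Clec4e, longer than its listed locus of 8082 bases and 5.24 times its longest GENCODE M1 transcript of 2519 bases. Clec4e was the only one of the 18 members with an implied length above its locus, as for 6.27% of all genes kept, and 1.64% of the genes with a transcript had as large a ratio to it. Among the 18 members, the ratio ranged from 1.00 to 5.24 with a median of 1.66, near the median of 1.67 over all genes. With the counts scaled like FPKM but by the longest transcript, Clec4e was at 121 and 136 on that scale in CHBP- and CHBP+ M-MDSC, which moved it from rank 7 to rank 4 of the 18, above Clec5a at 101 in each. Clec4n stayed highest at 1529 and 1336, followed by Clec7a at 337 and 338 and Clec4d at 319 and 276. Clec10a, with a ratio of 3.89, went from 7.75 and 6.71 FPKM to 30.1 and 26.1. The gap between Clec4e and Clec4d in CHBP- M-MDSC was thus narrower per longest transcript (121 against 319) than in the deposited FPKM (23.0 against 178). The ratio between libraries is not touched by the length except through the added 1 FPKM.

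**Figure D5:**
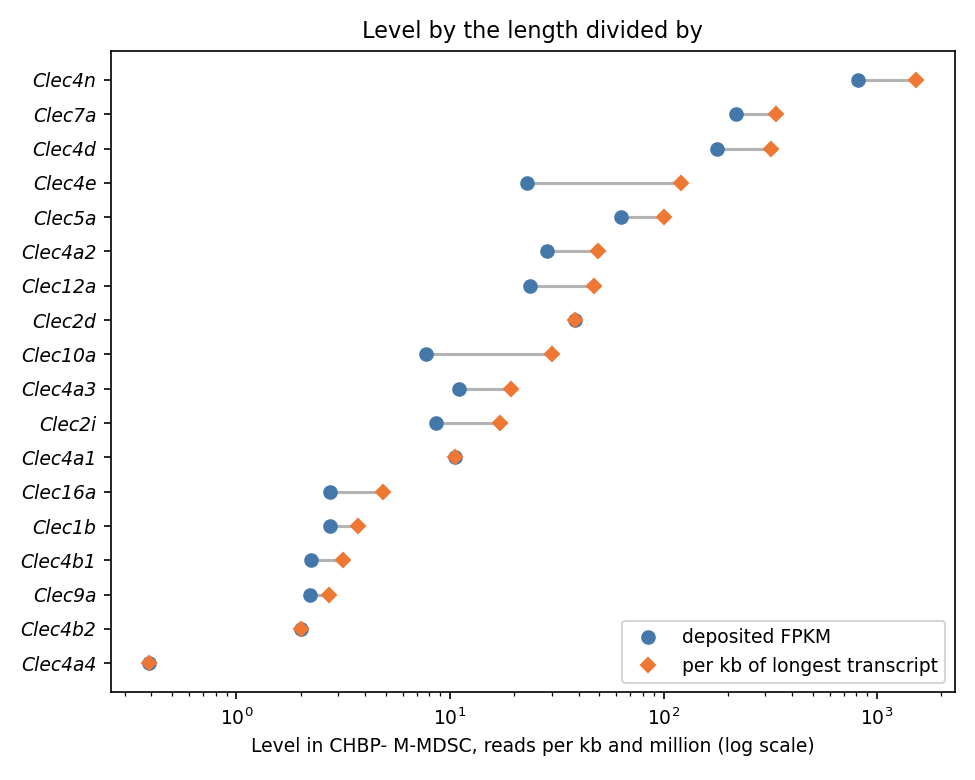
Level of the 18 expressed members in CHBP- M-MDSC (log axis), as the deposited FPKM (circles) and per kilobase of the longest GENCODE M1 transcript (diamonds). The gap is widest for Clec4e, from 23.0 to 121.

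The signalling genes that serve these receptors were expressed throughout. Of 37 listed, 36 were found by symbol and all 36 reached 1 FPKM, of which 1 was at least 1.5-fold lower, none was higher, and the median log2 ratio was 0.00. Over all genes kept, 2.89% were lower and 3.42% higher, so this list lay close to that background. The adaptor genes were the most abundant, with Tyrobp (DAP12) at 689 and 671 FPKM and Fcer1g (FcRgamma) at 283 and 214 FPKM. Fcer1g, the adaptor of Dectin-2, MCL and Mincle, had a CPM ratio of 0.756 (0.730 to 0.782), and a log2 ratio of -0.40 that became -0.03 against genes of like transcript length. Hcst (DAP10), which had 117 and 63 reads, was the gene lower by 1.5-fold, with a log2 ratio of -0.81, or -0.43 against genes of like transcript length. Cybb, the catalytic subunit of the phagocyte oxidase, was at 102 and 141 FPKM. Downstream of the adaptors, Syk had 8531 and 9586 reads, Card9 had 1805 and 1329, and Malt1 had 4341 and 6328. None of these 3 was past 1.5-fold, with log2 ratios of 0.18, -0.41 and 0.55. Compared with genes of like transcript length, these became -0.04, -0.23 and 0.39.

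Of 45 receptors with a C-type lectin fold under other names, 44 were found, 17 reached 1 FPKM, 1 was at least 1.5-fold higher and none was lower, with a median log2 ratio of 0.02, beside 3.42% higher and 2.89% lower of all genes kept. The most abundant were Cd93 (55.3 and 80.4 FPKM) and the oxidised-lipoprotein receptor Olr1 (43.4 and 57.1 FPKM). The gene past the threshold was Selp, P-selectin, with 172 and 310 reads and a log2 ratio of 0.60, whose locus overlaps another listed gene with reads. Of 19 cytokine and mediator genes that C-type lectin signalling can induce, 15 reached 1 FPKM, 2 were at least 1.5-fold higher and none was lower, with a median log2 ratio of -0.09, beside the same 3.42% and 2.89% of all genes kept. The 2 were Egr2 (545 and 2035 reads, log2 ratio 1.76) and Egr3 (243 and 391 reads, log2 ratio 0.65), transcription factors that Dectin-1 signalling can induce along with many other stimuli. The chemokines Ccl3 (291 and 241 FPKM), Cxcl3 (152 and 127 FPKM) and Ccl4 (68.2 and 56.4 FPKM) were the most abundant of that list, with log2 ratios of -0.27, -0.26 and -0.27, all within 1.5-fold. Against genes of like longest transcript the log2 ratios of Ccl3, Cxcl3 and Ccl4 turned to 0.10, 0.09 and 0.10.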

How the data were processed

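RNA of sorted M-MDSCs was sequenced as single-end reads, with 1 library per condition. Per the labels, adapters, low-quality 3' bases, short reads and ribosomal RNA reads were removed with Seqtk. The study's methods name TopHat2, HT-seq, DESeq and mm9, whereas the submitters' processing notes name HISAT2 2.0.4, Cufflinks 2.1.1, Cuffdiff and GRCm38. The deposited coordinates were treated as GRCm38, since all 33 members overlapped the RefSeq gene of their symbol there. The authors deposited raw read counts per gene and FPKM, for which they divided the counts by a gene length and by the library's total, with no other scaling. The handling of strand and of multi-mapping reads, and which gene length was used, are not given in the sources used here.

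Genes with at least 1 FPKM in either library were kept, and a pseudocount of 1 FPKM was added before the log2 ratio. With 1 library per condition, no test between conditions was run and the DESeq P value was not repeated. Intervals are exact 95% Clopper-Pearson intervals of the reads given the library totals. The length of the longest transcript by gene identifier came from GENCODE M1 (mm9), whose coordinates were not used. Promoters came from RefSeq, with entries for 25 members. All expressed members are named, members under 1 FPKM where they had at least 10 reads over both libraries, and of the pathway lists those at least 1.5-fold apart and the 3 most abundant, and other genes were chosen after their values were seen. A gene that this rule names is not reported here. The members and lists were chosen with earlier results of these data known. The calculations were tested on simulated data. Python 3.11.15, numpy 2.4.6, pandas 2.3.3, scipy 1.17.1, matplotlib 3.10.9 and, for the trimmed mean of M values (TMM), edgeR 4.0.16 in R 4.3.3 were used.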

Additional observations from a re-analysis of the deposited data

How the results depend on the processing

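The count of 18 expressed members was 19 with a minimum of 0.5 FPKM, 12 with 5 FPKM, 17 with 1 FPKM required in both libraries and 19 per longest transcript, where Clec2f was added. The 1 member higher by 1.5-fold, Clec4a4, fell to 0 with a 2-fold threshold and with a minimum of 5 FPKM, and with CPM in place of FPKM it was Clec1a in its place. The 1 member lower, Clec2d, fell to 0 with a 2-fold threshold, with TMM factors, with all log2 ratios centred on their median, and with the trend removed by either the length in the FPKM or the longest transcript. The call of Clec2d lies at the threshold, and shifts of the scale of this size cross it by construction. The median log2 ratio of the members ranged from -0.11 with a minimum of 5 FPKM to 0.09 with the trend with the longest transcript removed. Over all genes kept, 374 higher and 316 lower became 665 and 571 with a pseudocount of 0.1, 218 and 209 with a minimum of 5 FPKM, 796 and 464 with CPM, 85 and 46 at 2-fold, 353 and 152 with the trend with the length in the FPKM removed, and 244 and 106 with that of the longest transcript removed. The share of higher calls went from 54.2% to 64.9% at 2-fold and to 69.9% and 69.7% with the trends removed. The trend with the longest transcript took 11 of the 18 log2 ratios outside their counting intervals, with 8 changes of sign, and that with the length in the FPKM took 6, with 6 changes of sign. The cause of the trend was not tested. No paired analysis was possible because each condition has a single library, which also left no replicate to omit.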
